A study of Mus musculus with 5 samples.

Results

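Antioxidant and glutathione genes were examined in sorted pancreatic beta cells of mice in which the cell cycle inhibitor p16INK4a had been switched on. The group holds 37 named genes that encode the transcription factor NRF2 and its inhibitor, enzymes of glutathione synthesis and use, thioredoxins, peroxidases, superoxide dismutases and catalase. All 37 symbols were found among the 23951 genes of the table, and the authors had tested 34 of them for a difference between the groups. The p16 group was Ins-rtTA/tet-GFP/tet-p16ink4a and the GFP group was Ins-rtTA/tet-GFP. Animals of both genotypes therefore carried the tetracycline-controlled activator and green fluorescent protein, and both received tetracyclin for 10 days before islets were dissociated and fluorescent cells sorted. The p16 group had 3 samples and the GFP group had 2, from as many mice according to the series' design text, although no label ties a sample to its own mouse. The Ins-rtTA transgene is named for the insulin gene, whose promoter is active in beta cells. The labels state neither strain, sex nor age.

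Values are FPKM, read fragments scaled for transcript length and library size, so levels of different genes can be compared per length. The deposited table gives 1 value per group and gene, the authors' own, with no value per sample. No SD can therefore be given, the depth of each library is unknown, and whether the samples of the groups overlap cannot be read. A gene was called when its q-value, adjusted by the authors over all genes they tested, was below 0.05. Each fold or ratio is p16 over GFP. The approximate 95% intervals given below are those that the authors' p-value implies if a log2 ratio is normally distributed. In bulk RNA, fewer cells of a type and less RNA per cell cannot be told apart.

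NRF2, encoded by Nfe2l2, is a transcription factor that KEAP1 marks for degradation in unstressed cells. Oxidants and electrophiles modify KEAP1, NRF2 builds up, and genes with an antioxidant response element are switched on. Hydrogen peroxide is removed by catalase, by glutathione peroxidases at the expense of glutathione, and by peroxiredoxins at the expense of thioredoxin, and NADPH regenerates both carriers. Rodent beta cells are known for low catalase and low glutathione peroxidase activity compared with liver.

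Facts of the whole series bear on how these values read. Cdkn2a, which encodes p16INK4a, was listed at 34.6 FPKM in the p16 group and 0.657 FPKM in the GFP group (q = 0.00245 in the authors' deposited table). Of 7 tested beta-cell markers, Slc2a2 fell, with 205 FPKM in the p16 group and 402 FPKM in the GFP group (q = 0.0242 in the authors' deposited table). Slc2a2 was no longer called once the table-wide trend in GC content and transcript length was taken out. The other 6 were not called, with ratios of 0.619 (Ucn3) to 1.77 (Pdx1), and the most abundant, G6pc2, had 2327 FPKM in the p16 group and 3012 FPKM in the GFP group, while Ins1, Ins2 and Iapp were listed at 0 with a status for too many fragments. Delta and PP cell markers summed to 3998 FPKM in the p16 group and 1866 FPKM in the GFP group, with 4 of 5 called higher in the authors' deposited table. Of 12 immediate early and heat shock genes that respond to tissue dissociation, all 12 were called lower in the authors' deposited table, and they summed to 1166 FPKM in the p16 group and 3740 FPKM in the GFP group. Alpha-cell markers summed to 2781 FPKM in the p16 group and 2159 FPKM in the GFP group. Duct markers summed to 169 FPKM in the p16 group and 144 FPKM in the GFP group, nearly all of it the uncalled Krt7, while Spp1 rose 3.92-fold, Sox9 rose 4.03-fold and Krt19 fell to 0.311 of its GFP value in the authors' deposited table (q = 0.00245, 0.0322 and 0.0105). Sox9 was low in both groups, with 0.492 FPKM in the p16 group and 0.122 FPKM in the GFP group. Spp1 had 15.1 FPKM in the p16 group and 3.85 FPKM in the GFP group, and Krt19 had 1.79 FPKM in the p16 group and 5.75 FPKM in the GFP group. With the GC and length trend taken out, Spp1 and Krt19 were still called and Sox9 was not. Red blood cell markers summed to 22.7 FPKM in the p16 group and 12.3 FPKM in the GFP group, acinar markers to 15.8 FPKM in the p16 group and 15.03 FPKM in the GFP group, and endothelial markers to 0.552 FPKM in the p16 group and 0.567 FPKM in the GFP group. Their part in the results below was not tested.

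Of the 34 tested members, Srxn1 and Gpx3 rose and Nqo1 fell in the authors' deposited table. These 3 calls are 8.82% of the tested members, against 5.42% of all 13264 tested genes. The 2 calls upward are 5.88% of the tested members, against 4.32% of all tested genes, and the 1 call downward is 2.94%, against 1.1% of all tested genes. With so few calls, these shares lie near the background and are no result about the members as a set. The median log2 ratio of the 34 was -0.07, beside -0.02 over all tested genes with a value above 0 in both groups and -0.06 over those with a mean of at least 5 FPKM. In the p16 group 13 of the 34 had the higher value and 21 the lower one. That split turned to 21 higher and 13 lower once each group was divided by its total FPKM, and the median log2 ratio to 0.02. An unadjusted p below 0.05 was reached by 5 members, or 14.7%, against 17.2% of all tested genes.

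As a set the members were abundant: 27 of the 34 tested lay above the median tested gene in mean FPKM, and 12 lay above percentile 90. Sod1, the cytosolic copper and zinc superoxide dismutase, had the highest level in both groups, with 378 FPKM in the p16 group and 395 FPKM in the GFP group. Members of lowest level were Gpx8, Sod3 and Mgst1, each below 0.4 FPKM in both groups and not tested by the authors.

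**Figure D1:**
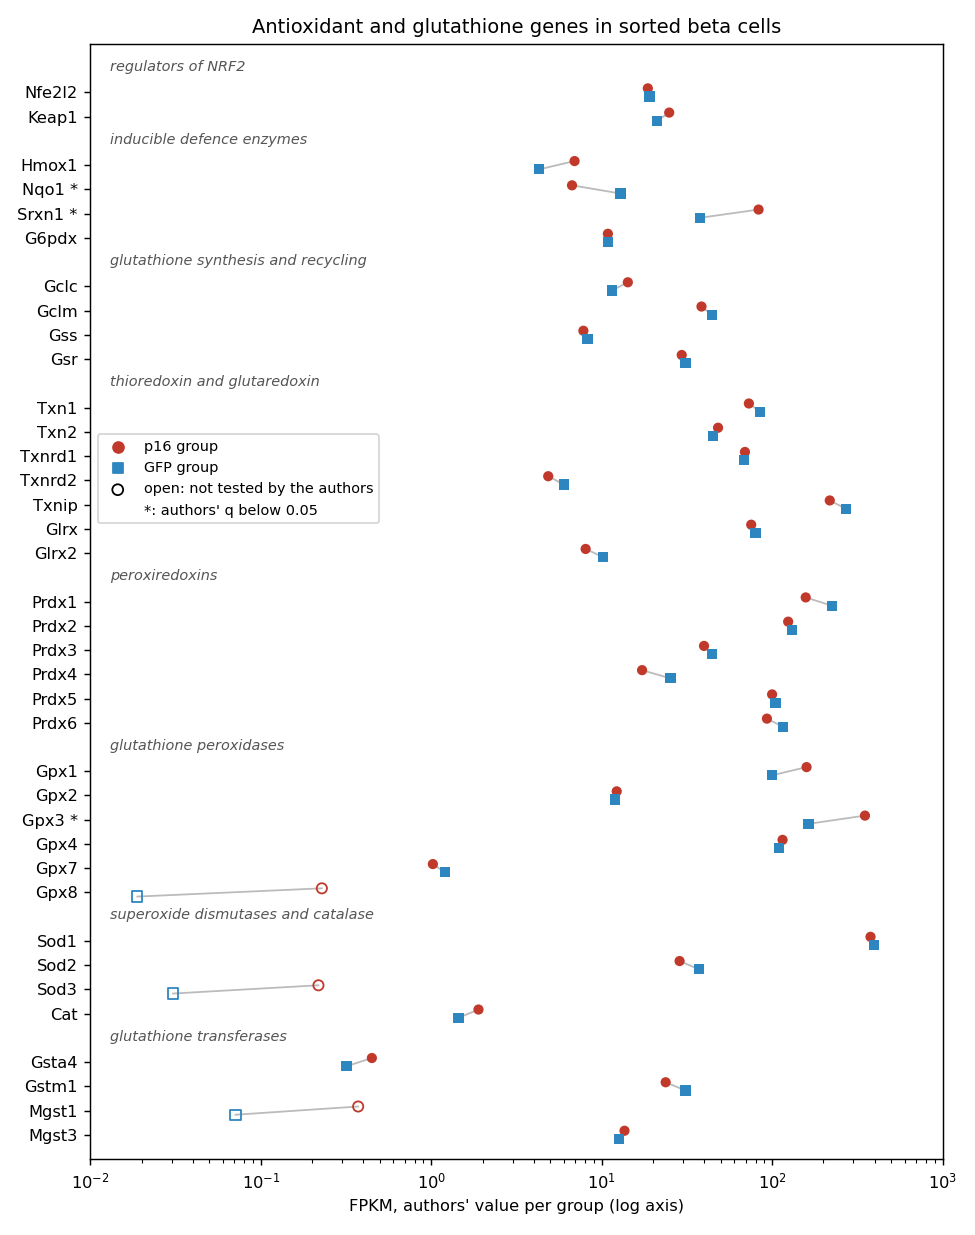
FPKM of the 37 members in the p16 group (circles) and the GFP group (squares), grouped by role on a log axis; open symbols were not tested by the authors and an asterisk marks a q below 0.05 in the authors' deposited table. Among tested members most pairs lie close together, with Srxn1 and Gpx3 to the right in p16 and Nqo1 to the left. The pairs furthest apart are the untested Gpx8, Sod3 and Mgst1, which have the lowest levels.

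The regulators of the response differed little. Nfe2l2 had 18.7 FPKM in the p16 group and 19.1 FPKM in the GFP group, a ratio of 0.979 with an approximate 95% interval of 0.685 to 1.397. Keap1, whose product holds NRF2 in check, had 24.9 FPKM in the p16 group and 21.1 FPKM in the GFP group, a ratio of 1.18 (0.812 to 1.71). Neither was called (q = 0.974 and q = 0.741 in the authors' deposited table). NRF2 is controlled largely at the protein level, which these values do not measure.

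The inducible defence enzymes went in opposite directions. Srxn1 encodes sulfiredoxin, which repairs peroxiredoxins whose active cysteine has been over-oxidised. It had 83.3 FPKM in the p16 group and 37.8 FPKM in the GFP group, a rise of 2.20-fold (q = 0.00245 in the authors' deposited table). Its p-value of 5e-05 is the smallest that the table holds, so no interval is given. Nqo1 encodes a quinone reductase that is used widely as a readout of NRF2 activity. It had 6.70 FPKM in the p16 group and 12.9 FPKM in the GFP group, a fall to 0.519 of the GFP value (0.342 to 0.787; q = 0.0411 in the authors' deposited table). With the table-wide trend in GC content and transcript length taken out, the adjusted p of Nqo1 was 0.268 and it was no longer called, while that of Srxn1 was 0.0158.

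Hmox1, the haem-degrading enzyme heme oxygenase 1, had 6.93 FPKM in the p16 group and 4.30 FPKM in the GFP group. Its ratio of 1.61 (1.02 to 2.55) was not called after adjustment (q = 0.264 in the authors' deposited table). Of the 6 macrophage markers found, 2 were tested. Cd68 had 1.95 FPKM in the p16 group and 0.229 FPKM in the GFP group (q = 0.0498 in the authors' deposited table), a call lost with the GC and length trend removed (adjusted p = 0.0796) and with a filter at a mean of 1 FPKM (adjusted p = 0.0520). C1qa, most of their summed level, had 35.1 FPKM in the p16 group and 25.9 FPKM in the GFP group and was not called (q = 0.449 in the authors' deposited table). Lyz2 had 0.0327 FPKM in the p16 group and 0.0756 FPKM in the GFP group, and Emr1 was listed at 0 in the p16 group and 0.00554 FPKM in the GFP group. The 6 summed to 37.5 FPKM in the p16 group and 26.4 FPKM in the GFP group. Their part in the Hmox1 values was not tested. G6pdx encodes the enzyme that starts the pentose phosphate pathway and so supplies NADPH. It had 10.9 FPKM in each group, at a ratio of 0.994 (0.534 to 1.85). It shares its locus with Ikbkg, so the split of reads between them is uncertain.

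Srxn1 lies at chromosome 2, 151931260 to 151937112, and Nqo1 at chromosome 8, 109912125 to 109927105, in the mm9 build of the table. Promoters were read from RefSeq sequence of build GRCm38.p6, which is not the build of the table, for the 31 members with an entry; Hmox1, Gclc, Gsr, Prdx6, Sod3 and Gsta4 had none. The 250 bases before the start are shown for Srxn1 and Nqo1, the called members that moved in opposite directions, 5′ to 3′ along the gene, with motif matches in capitals. The motifs searched on both strands were the core of the antioxidant response element, TGACNNNGC or TGAGNNNGC, and the AP-1 site TGANTCA, which can overlap the core.
Srxn1 (chr2:152105274-152105523, plus strand): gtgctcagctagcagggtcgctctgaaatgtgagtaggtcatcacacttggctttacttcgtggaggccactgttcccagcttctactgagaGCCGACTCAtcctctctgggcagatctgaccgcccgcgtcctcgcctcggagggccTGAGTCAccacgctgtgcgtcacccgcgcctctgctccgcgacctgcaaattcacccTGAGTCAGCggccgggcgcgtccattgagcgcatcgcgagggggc
Nqo1 (chr8:107403206-107403455, minus strand): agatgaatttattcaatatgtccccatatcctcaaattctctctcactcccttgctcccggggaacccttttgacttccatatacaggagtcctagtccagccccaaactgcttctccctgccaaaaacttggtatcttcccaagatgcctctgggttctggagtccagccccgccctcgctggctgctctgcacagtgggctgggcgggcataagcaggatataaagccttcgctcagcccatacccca

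The Srxn1 window from 250 bases before to 50 bases after the start held 3 matches to the core, at positions -158, -45 and 29 from the start, and 2 AP-1 sites, of which the one at -45 overlaps a core match. The same window of Nqo1 held none of these letters. Bases outside the window were not searched, so a match further from the start of any of these genes would be missed. Over all members, 9 of 31 had a core match in some promoter, or 29.0%, against 35.7% of the 9776 tested genes with a promoter entry and 27.8% of all 32851 promoters. The last share counts each promoter singly and the others count genes, so the units differ. The forms of the core went opposite ways. TGACNNNGC was found in 8 of the 31, or 25.8%, against 17.3% of those tested genes. TGAGNNNGC was found in 3 of the 31, or 9.68%, against 23.0% of them. An AP-1 site was found in 3 of the 31, Srxn1, Prdx1 and Glrx, or 9.68%, against 6.13% of those tested genes and 7.81% of all promoters. The 9 members with a core match were G6pdx, Gclm, Mgst1, Nfe2l2, Prdx1, Sod1, Srxn1, Txn2 and Txnrd1. Of the 8 tested members with a core match, 3 had the higher value in p16 and 5 the lower one, with ratios of 0.703 to 2.20. Of the 21 tested members with a promoter entry and no core match, 7 had the higher value and 14 the lower one. Their ratios ran from 0.519 to 2.14. A match is a description of letters and not of binding. The third Srxn1 match and 1 match in each of Prdx1, Gclm, Txnrd1 and Nfe2l2 are shown with 10 bases on each side, because they set the letters of the called Srxn1 beside those of 4 members that were not called; Prdx1 has a second match, at position 16, that is not shown; where the core lies on the opposite strand, the capitals are its reverse complement.
Srxn1 (chr2:152105542-152105570, plus strand): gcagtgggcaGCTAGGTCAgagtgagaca
Prdx1 (chr4:116685456-116685484, plus strand): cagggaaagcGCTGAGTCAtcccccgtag
Gclm (chr3:122245413-122245441, plus strand): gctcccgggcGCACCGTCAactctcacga
Txnrd1 (chr10:82859104-82859132, plus strand): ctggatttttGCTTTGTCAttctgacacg
Nfe2l2 (chr2:75704885-75704913, minus strand): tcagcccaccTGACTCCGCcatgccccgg

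Enzymes that make and recycle glutathione did not differ beyond the authors' test. Gclc, the catalytic subunit of glutamate-cysteine ligase, the limiting step of glutathione synthesis, had 14.2 FPKM in the p16 group and 11.5 FPKM in the GFP group, a ratio of 1.24 (0.859 to 1.78). Its modifier subunit gene Gclm had 38.5 FPKM in the p16 group and 44.4 FPKM in the GFP group, a ratio of 0.867 (0.608 to 1.24). In both groups the modifier subunit was thus listed well above the catalytic one. Gss, which joins the last amino acid, had 7.81 FPKM in the p16 group and 8.26 FPKM in the GFP group, and Gsr, which reduces oxidised glutathione, had 29.5 FPKM in the p16 group and 31.01 FPKM in the GFP group. Their ratios were 0.946 (0.627 to 1.43) and 0.951 (0.669 to 1.35). None of the 4 was called, and their q-values ran from 0.614 to 0.945 in the authors' deposited table.

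The thioredoxin and glutaredoxin genes were likewise uncalled, all 7 of them, with ratios between 0.789 and 1.07. Txnip, which encodes the thioredoxin-binding protein that glucose induces in beta cells, was the most abundant, with 218 FPKM in the p16 group and 271 FPKM in the GFP group. Its ratio was 0.804 (0.542 to 1.19; q = 0.642 in the authors' deposited table), and it shares its locus with Gm15441. Txn1, the cytosolic thioredoxin, had 73.1 FPKM in the p16 group and 84.9 FPKM in the GFP group, and its reductase Txnrd1 had 69.3 FPKM in the p16 group and 68.4 FPKM in the GFP group. The Txnrd1 ratio of 1.01 (0.690 to 1.49) is among the closest to 1 of all members, and the locus also holds Eid3. Glrx, a cytosolic glutaredoxin that removes glutathione from proteins, had 75.4 FPKM in the p16 group and 79.96 FPKM in the GFP group.

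In mitochondria, thioredoxin 2 (Txn2) had 48.2 FPKM in the p16 group and 44.9 FPKM in the GFP group. Glrx2, the mitochondrial glutaredoxin, had 8.05 FPKM in the p16 group and 10.2 FPKM in the GFP group, a ratio of 0.789 (0.542 to 1.15). Txnrd2, the mitochondrial thioredoxin reductase, had 4.86 FPKM in the p16 group and 5.99 FPKM in the GFP group. Its interval, 0.202 to 3.26, is the widest of all tested members with an interval, and its reads may be shared with overlapping genes. With Prdx3 and Sod2, 4 of the 5 members grouped here as mitochondrial had the lower value in p16, also under each of the 3 scalings tried, and none was called. Members placed in mitochondria only in part were not counted. Before scaling, 6814 of 13174 tested genes with values above 0 in both groups had the lower value too. So few members are no result about the compartment.

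Each of the 6 peroxiredoxin genes had the lower value in p16, and none was called. With total FPKM scaling or quantile normalization 4 of the 6 had the lower value, and Prdx2 and Prdx5 the higher one. Prdx1, the major cytosolic peroxiredoxin, had 157 FPKM in the p16 group and 224 FPKM in the GFP group, a ratio of 0.703 (0.491 to 1.01; q = 0.301 in the authors' deposited table). Prdx4, the peroxiredoxin of the endoplasmic reticulum, had 17.3 FPKM in the p16 group and 25.3 FPKM in the GFP group, a ratio of 0.681 (0.452 to 1.03; q = 0.339 in the authors' deposited table). These are the lowest ratios of the family, and each interval just reaches 1.

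Prdx6, which uses glutathione rather than thioredoxin, had 93.3 FPKM in the p16 group and 116 FPKM in the GFP group, a ratio of 0.804 (0.563 to 1.15). Prdx2, also cytosolic, had 124 FPKM in the p16 group and 131 FPKM in the GFP group. Prdx3, of mitochondria, had 39.9 FPKM in the p16 group and 44.2 FPKM in the GFP group. The last member, Prdx5, had 99.98 FPKM in the p16 group and 105 FPKM in the GFP group. The ratios of these last 3 ran from 0.902 to 0.955. Summed over the family the level was 532 FPKM in the p16 group and 645 FPKM in the GFP group. Prdx1 shares its locus with AV051173, which was listed at 1.34 FPKM in the p16 group and 1.27 FPKM in the GFP group.

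Glutathione peroxidases showed the opposite sum, 638 FPKM in the p16 group and 386 FPKM in the GFP group, a ratio of 1.65. Most of that lies in Gpx3, the secreted glutathione peroxidase, which had 350.5 FPKM in the p16 group and 164 FPKM in the GFP group, a rise of 2.14-fold (1.46 to 3.15; q = 0.00441 in the authors' deposited table). Gpx3 made up 54.9% of the family's summed FPKM in p16 and 42.4% in GFP. The gene lies at chromosome 11, 54716356 to 54723884, in mm9. Its call stood when the GC and length trend was taken out of the authors' deposited table (adjusted p = 0.0290). Of 5 delta and PP cell markers 4 rose too, Hhex being the exception (q = 0.945 in the authors' deposited table), and their part in the Gpx3 and Srxn1 values was not tested. Sst had 2678 FPKM in the p16 group and 1244 FPKM in the GFP group, and Ppy had 672 FPKM in the p16 group and 345 FPKM in the GFP group. With the GC and length trend taken out of the authors' deposited table the adjusted p was 0.0283 for Sst and 0.128 for Ppy, which was then not called. The 250 bases before the Gpx3 start are shown because Gpx3 is the other member that rose; unlike those of Srxn1 they hold no match to the core or to the AP-1 site.
Gpx3 (chr11:54902604-54902853, plus strand): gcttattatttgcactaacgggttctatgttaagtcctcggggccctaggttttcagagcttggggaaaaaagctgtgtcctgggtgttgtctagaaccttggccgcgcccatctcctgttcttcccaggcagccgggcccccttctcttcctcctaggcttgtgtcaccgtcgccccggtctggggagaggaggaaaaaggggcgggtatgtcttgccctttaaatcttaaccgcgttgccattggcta

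Gpx1, the widely expressed cytosolic glutathione peroxidase, had 159 FPKM in the p16 group and 99.6 FPKM in the GFP group. Its ratio of 1.599 (1.11 to 2.31) had an unadjusted p of 0.0121 and missed the threshold after adjustment (q = 0.132 in the authors' deposited table). Gpx4, which reduces lipid peroxides in membranes, had 115 FPKM in the p16 group and 109.6 FPKM in the GFP group, a ratio of 1.05 (0.720 to 1.53). Gpx2, known best from the gut epithelium, had 12.3 FPKM in the p16 group and 12.0 FPKM in the GFP group. Gpx7, a peroxidase of the endoplasmic reticulum, was near the bottom of the tested range, with 1.02 FPKM in the p16 group and 1.20 FPKM in the GFP group. Its relative Gpx8 was not tested, at 0.228 FPKM in the p16 group and 0.0189 FPKM in the GFP group.

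**Figure D2:**
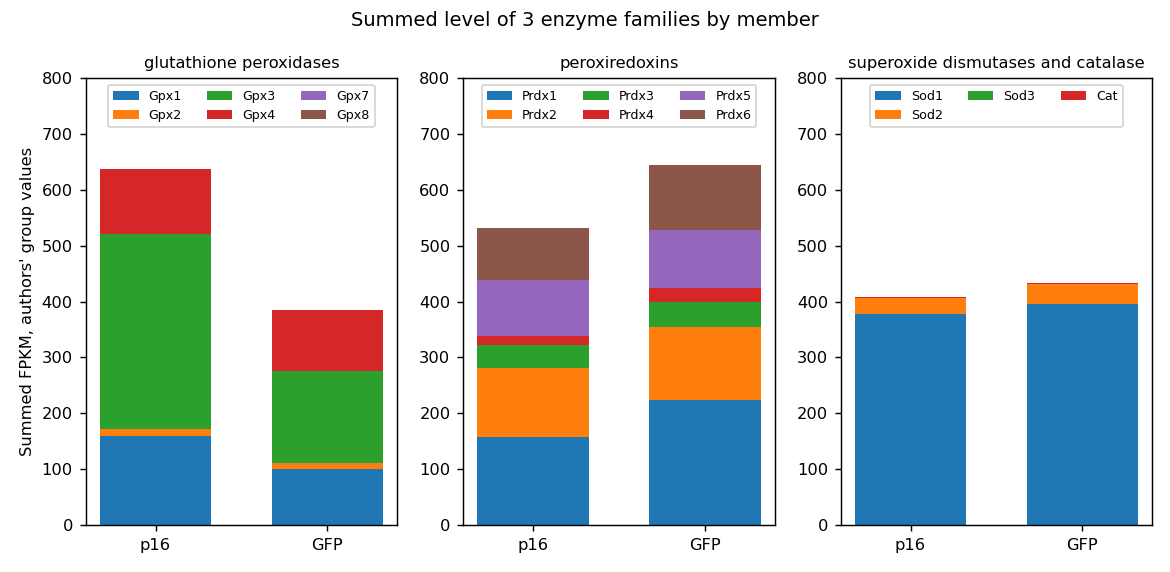
Summed FPKM of the glutathione peroxidases, the peroxiredoxins, and the superoxide dismutases with catalase, stacked by member, in the p16 group and the GFP group. Gpx3 fills 54.9% of the glutathione peroxidase bar in p16 and 42.4% in GFP, and Sod1 fills over 90% of the third pair of bars.

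Superoxide dismutases and catalase were not called. Sod1 had a ratio of 0.956 (0.672 to 1.36) and made up 92.5% of the summed FPKM of Sod1, Sod2, Sod3 and Cat in p16 and 91.1% in GFP. Sod2, the manganese enzyme of mitochondria, had 28.7 FPKM in the p16 group and 37.2 FPKM in the GFP group, a ratio of 0.770 (0.536 to 1.11; q = 0.503 in the authors' deposited table). Cat, catalase, had 1.89 FPKM in the p16 group and 1.45 FPKM in the GFP group, at percentile 17.2 of tested genes. Sod1, by contrast, stood at percentile 98.96. The Cat ratio was 1.31 (0.779 to 2.20), so neither a rise nor a fall was shown.

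Glutathione transferases, which attach glutathione to electrophiles, ranged widely in level. Gstm1 had 23.7 FPKM in the p16 group and 31.04 FPKM in the GFP group, a ratio of 0.765 (0.516 to 1.13), and its reads may be shared with near relatives of the same cluster. Mgst3, a microsomal enzyme, had 13.6 FPKM in the p16 group and 12.6 FPKM in the GFP group. Gsta4, which handles the lipid peroxidation product 4-hydroxynonenal, was the lowest tested member, with 0.449 FPKM in the p16 group and 0.319 FPKM in the GFP group and an interval of its ratio from 0.520 to 3.81.

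Mgst1, Sod3 and Gpx8 were not tested by the authors and were near 0 in both groups, with the lower value in the GFP group. Mgst1 had 0.373 FPKM in the p16 group and 0.0710 FPKM in the GFP group. Sod3, the secreted superoxide dismutase, had 0.218 FPKM in the p16 group and 0.0305 FPKM in the GFP group. Of 6 stellate cell and fibroblast markers the authors tested 2, Col1a2 and Dcn, and both rose. Col1a2 had 1.597 FPKM in the p16 group and 0.0837 FPKM in the GFP group, a call lost with the GC and length trend taken out of the authors' deposited table (adjusted p = 0.0734). Dcn had 2.29 FPKM in the p16 group and 0.133 FPKM in the GFP group. Among the untested markers, Col3a1 had 0.186 FPKM in the p16 group and 0.169 FPKM in the GFP group, and Lum had 0.00907 FPKM in the p16 group and 0.0450 FPKM in the GFP group. The 6 summed to 4.56 FPKM in the p16 group and 0.506 FPKM in the GFP group. Their part in these 3 members' values was not tested.

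**Figure D3:**
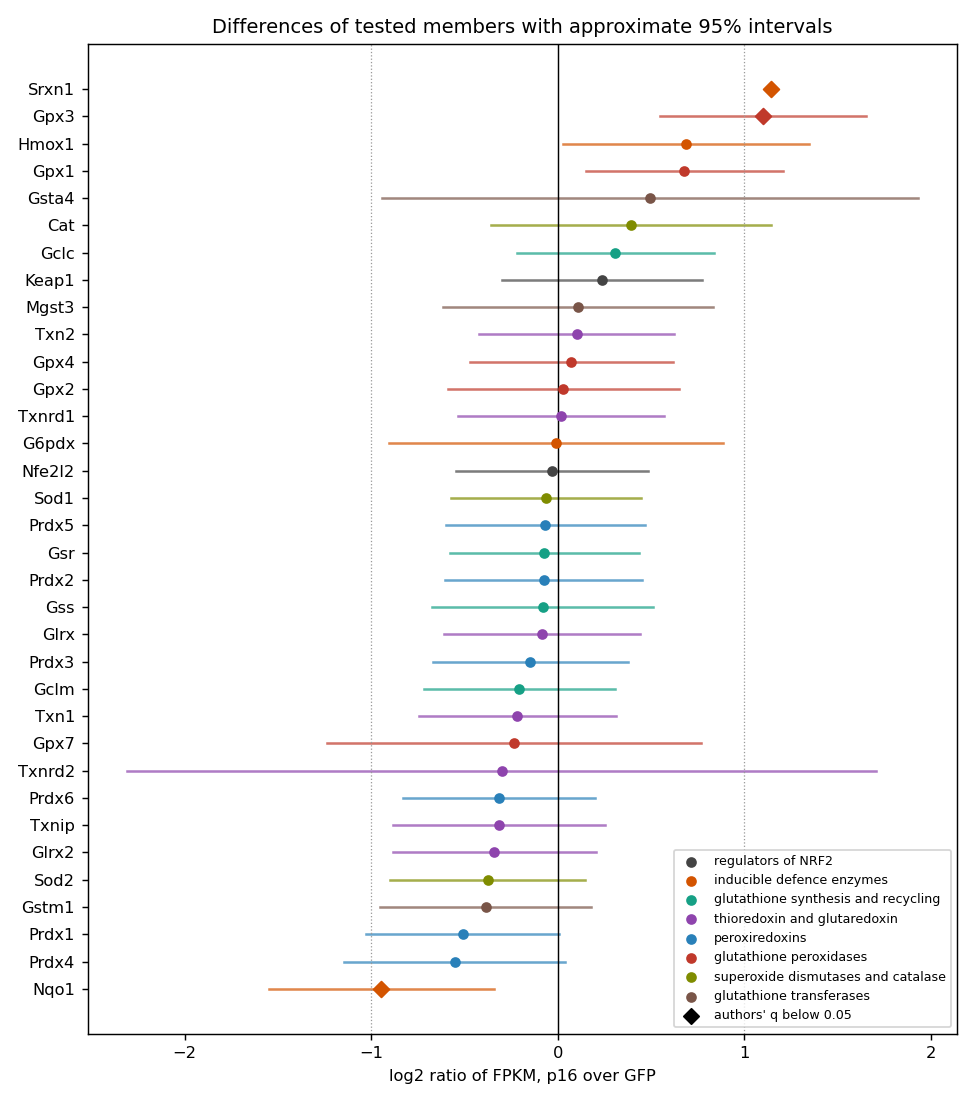
Log2 ratios of FPKM, p16 over GFP, of the 34 tested members in order of size, coloured by role, with the approximate 95% interval that the authors' p-value implies; diamonds have a q below 0.05 in the authors' deposited table and dotted lines mark a ratio of 0.5 or 2. Srxn1 has no interval because its p-value is the smallest the table holds, and Txnrd2 has the widest.

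Intervals set how far the uncalled members can be read. Of the 31 tested members that were not called, 23 had an interval wholly between 0.5 and 2, so a change of 2-fold or more lay outside it. The other 8 were Hmox1, Gpx1, Cat, Gsta4, Gpx7, Txnrd2, Prdx1 and Prdx4. The implied standard error of the log2 ratio had a median of 0.28 over the tested members and, where an interval could be had, ran from 0.26 for Gsr to 1.02 for Txnrd2. Differences the size of those of the peroxiredoxins did not pass the test with these samples.

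**Figure D4:**
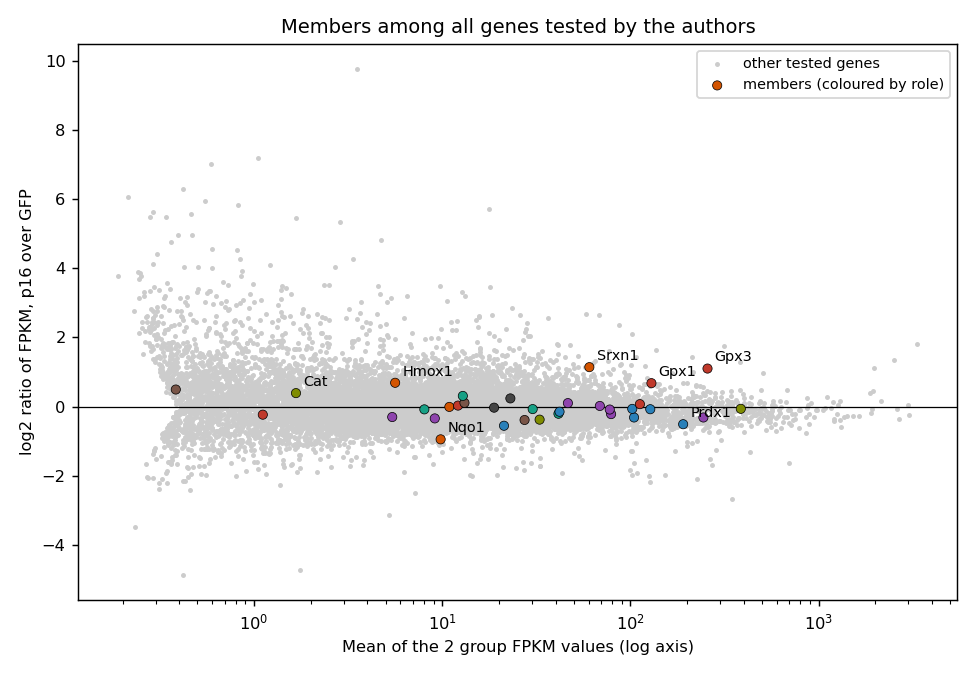
Log2 ratio of FPKM, p16 over GFP, against the mean of both group values on a log axis, for tested members (coloured by role) and all other tested genes with values above 0 in both groups (grey). Srxn1 lies at 1.14, Gpx3 at 1.10 and Nqo1 at -0.95, while the members' median lies at -0.07.

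Further genes of redox metabolism were read from 6 lists with 138 genes, of which 136 were in the table and 107 had been tested. Of these 107, 8 passed the authors' threshold, all of them upward, or 7.48% against 4.32% of all tested genes. The median log2 ratio over the 107 was -0.08, beside -0.02 over all tested genes. With the GC and length trend taken out 5 were called higher, since Idh1 was gained and Bach2, Osgin1, Sesn2 and Xdh were lost at adjusted p = 0.0754, 0.0877, 0.0731 and 0.1001 in that recalculation from the authors' deposited table. Sesn2 has the smallest p-value that the table holds, so its normal quantile in that recalculation is a lower bound.

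Genes of glutathione supply and breakdown held 3 of the 8 calls, out of 12 tested. That is 25%, against 4.32% of all tested genes called higher, and so few calls are no result about the list. Slc7a11 encodes the cystine and glutamate exchanger, a supplier of cysteine for glutathione, and was low in both groups, with 0.980 FPKM in the p16 group and 0.119 FPKM in the GFP group (q = 0.00245 in the authors' deposited table). Slc1a4, a carrier of alanine, serine and cysteine, rose 3.84-fold, to 12.9 FPKM in the p16 group, against 3.35 FPKM in the GFP group. Chac1, which cleaves glutathione, rose 2.35-fold, to 125 FPKM in the p16 group, against 53.1 FPKM in the GFP group. The authors' deposited table gives Slc1a4 and Chac1 the same q-value as Slc7a11.

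Partners and further targets of NRF2 held another 3 calls, out of 24 tested. That is 12.5%, against 4.32% of all tested genes called higher, again too few calls for a result about the list. Bach1, a repressor that competes with NRF2 for the antioxidant response element, had 24.1 FPKM in the p16 group and 13.01 FPKM in the GFP group, a rise of 1.85-fold (q = 0.0267 in the authors' deposited table). Its relative Bach2 had 0.591 FPKM in the p16 group and 0.196 FPKM in the GFP group (q = 0.0152 in the authors' deposited table). Osgin1, an NRF2-responsive growth inhibitor, had 14.9 FPKM in the p16 group and 6.24 FPKM in the GFP group, a rise of 2.38-fold (q = 0.00597 in the authors' deposited table).

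Sesn2, a sestrin that also senses leucine, was the single call among 30 tested selenoproteins, methionine sulfoxide reductases and further redox genes. That is 3.33% of the 30, against 4.32% of all tested genes called higher. Sesn2 rose 4.14-fold, to 47.3 FPKM in the p16 group, against 11.4 FPKM in the GFP group (q = 0.00245 in the authors' deposited table). The abundant selenoprotein genes Sepp1 and Selk were not called: Sepp1 had 454 FPKM in the p16 group and 623 FPKM in the GFP group, and Selk had 302 FPKM in the p16 group and 409 FPKM in the GFP group. Among enzymes that make reactive oxygen species 1 of 10 tested was called, or 10%, against 4.32% of all tested genes called higher. This was Xdh, or xanthine dehydrogenase, which had 0.639 FPKM in the p16 group and 0.0539 FPKM in the GFP group (q = 0.0215 in the authors' deposited table). Its interval of the ratio, 2.79 to 50.3, shows how imprecise values this low are. Ero1lb, an oxidase that forms disulfides in the endoplasmic reticulum, had 1051 FPKM in the p16 group and 1594 FPKM in the GFP group, and Maob, a monoamine oxidase, had 113 FPKM in the p16 group and 180.3 FPKM in the GFP group. Neither was called.

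None of the 14 genes of NADPH supply and none of the 17 further glutathione transferases and users tested was called. Taldo1 and Idh2, the most abundant NADPH suppliers, had 74.9 and 60.1 FPKM in the p16 group and 79.0 and 69.8 FPKM in the GFP group. Of the 17 further transferases and users 14 had the lower value in p16, at a median log2 ratio of -0.28. Over all tested genes with values above 0 in both groups, 6814 of 13174 had the lower value. Gstm2, Gstm4, Gstm5 and Gstm7, all lower, lie in 1 cluster, so the 17 are not independent. This split was not read under other scalings. The most abundant of the 17, Gstz1 and Glrx5, had 100.1 and 95.3 FPKM in the p16 group and 123.7 and 89.5 FPKM in the GFP group.

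**Figure D5:**
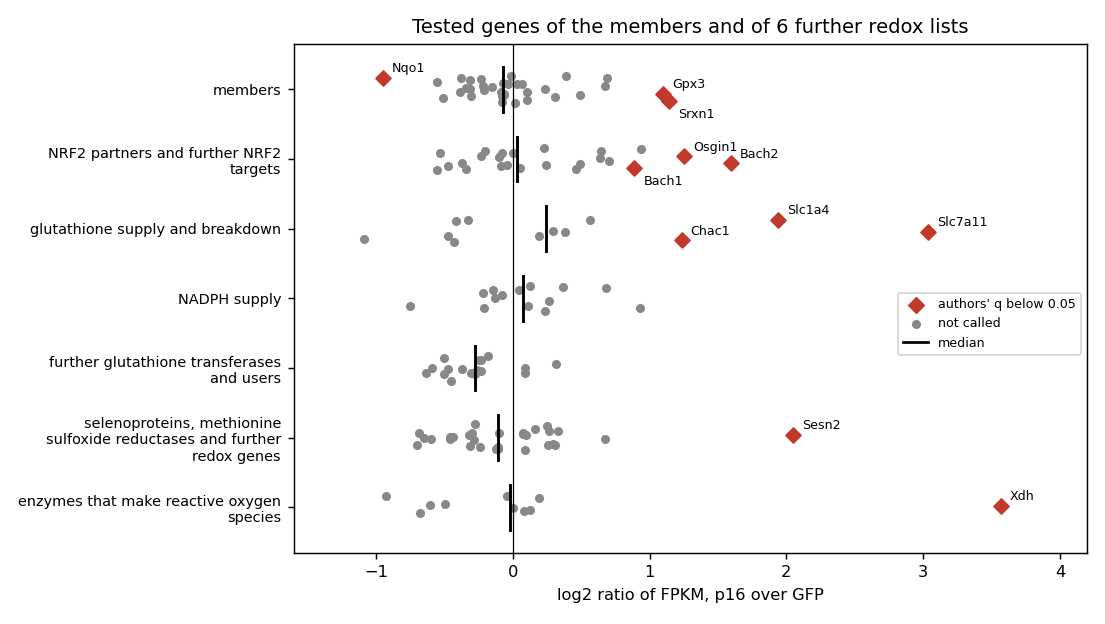
Log2 ratios of FPKM, p16 over GFP, of the tested members and of the tested genes of 6 further redox lists; each point is a gene, diamonds have a q below 0.05 in the authors' deposited table, and the black bar is the median. The 8 calls of the further lists are all to the right of 0, while the medians lie between -0.28 and 0.24.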

How the data were processed

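Total RNA of sorted beta cells was sequenced in 5 samples, grouped by title into 3 p16 and 2 GFP samples. The submitters' processing notes name TopHat2, Cuffnorm, Cuffdiff and mm9; tool versions, gene models and strandedness were not given in the sources used here. In the deposited table are the authors' FPKM, 1 value per group and gene, with their p-value and q-value. FPKM is scaled for transcript length and library size, so count models do not apply. Library depths are unknown and no test across samples could be refitted, so the authors' q-values were used as planned. Adjusting their p-values again by Benjamini-Hochberg over 13264 genes gave the same q-values within 5.23e-07.

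Ratios were recomputed from FPKM without a pseudocount. A standard error was taken as the size of the log2 ratio over the normal quantile of the authors' two-sided p-value; no interval is given at the smallest p-value, 5e-05. Starts count from 0 in the table, as 266 of 270 microRNA lengths showed, and 1 was added. Transcript GC content and length were read from the longest GENCODE M21 transcript (99.0% of tested genes); natural splines with 4 degrees of freedom were regressed from signed normal quantiles, of whose variance they explained 23.2%, and p-values adjusted again. This step and the standard error were tested on simulated data. Python 3.11.15, numpy 2.4.6, pandas 2.3.3, scipy 1.17.1, patsy 1.0.2 and matplotlib 3.10.9 were used. The members, lists and alternatives were chosen with earlier results of these data known. By rule all members were named, and in each further list up to 4 called genes with the greatest change, or, with fewer than 2 calls, the 2 of highest mean FPKM. Promoter motifs were chosen after the values were seen.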

Additional observations from a re-analysis of the deposited data

How the results depend on the processing

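Srxn1 and Gpx3 were called higher under each of the 5 alternatives run, so that count was 2 throughout. Nqo1 was called with filters at a mean of 1 or 5 FPKM and at a q below 0.1, but the count of members called lower was 0 at a q below 0.01 and 0 with the GC and length trend removed, where its adjusted p was 0.268. The count of further redox genes called higher, 8, was 5 at a q below 0.01, 5 with either FPKM filter and 5 with the trend removed. Over all tested genes, the counts called higher and lower were 573 and 146 in the table as deposited, 311 and 58 at a q below 0.01, 753 and 272 at a q below 0.1, 462 and 133 with a filter at 1 FPKM, 298 and 106 at 5 FPKM, and 319 and 68 with the trend removed. The count of further redox genes called lower, 0 in the table as deposited, was 1 at a q below 0.1 (Aox1). At an unadjusted p below 0.05 among members, 4 were higher and 1 lower. The members' median log2 ratio of -0.07 turned to 0.0196 with total FPKM scaling, which moved the median of all tested genes to 0.07; under the other 7 alternatives it lay between -0.07 and -0.02. The totals leave out genes with too many fragments. Filters left Gsta4, Cat and Gpx7 out at 5 FPKM and Gsta4 at 1 FPKM. Depth is unknown, and the 3 untested members lie below 0.4 FPKM in both groups. Leaving out a replicate was not run. No paired analysis was possible because the table holds 1 value per group and no value per sample.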

Other observations

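Ratios of the members followed the GC content of their transcripts as those of other genes did. Across the 34 tested members, which are not independent replicates, the log2 ratio of FPKM and the GC content had a Spearman rho of 0.52, and across 13044 tested genes it was 0.46. Srxn1 and Gpx3, the members that rose, had a GC content of 53.3% and 56.0%, and Nqo1, which fell, had 46.7%. Among all tested genes the median GC content was 53.3% for those called higher and 43.6% for those called lower. Gpx4 had the highest GC content of these 34 members, 60.2%, with a ratio of 1.05, and Gclm the lowest, 42.1%, with a ratio of 0.867. All points come from the same libraries, and the part of GC content in the members' ratios was not tested beyond the trend removal.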
